A study of Rattus with 4 samples.

Results

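Of the 10804 peaks called in 2 immunoprecipitates (IP) of RBM25 from rat H9C2 cells, 245 lay wholly inside introns. A peak was taken as wholly intronic when intron was the sole class in the annotation that the authors deposited for it, on the strand of its gene. By this rule 48 of 2696 peaks qualified in IP replicate 1 (1.78%, 1.35 to 2.35) and 197 of 8108 in replicate 2 (2.43%, 2.12 to 2.79). Ranges after a share are 95% Wilson intervals over the peaks of a list, and they cover counting error only. H9C2 is a myoblast line from embryonic rat heart, and RNA was fixed to its proteins with ultraviolet light, trimmed by micrococcal nuclease, recovered with RBM25 and sequenced. The series has 4 samples, 2 IPs and 2 inputs without further treatment in their labels; whether the cells used here carried the RBM25 overexpression that the series describes for its RNA-seq is not stated, and the inputs were not analysed here. Tags are the number of reads that the authors gave per 50-nt bin, averaged over the bins of a longer peak. Depth is unknown, the labels do not state whether the replicates were separate cultures, and the lists differ in length, so each list is described on its own and tags are not read as a change between them. No statistical test was run, because the peaks of a list share 1 library and neighbouring peaks share a source.

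RBM25 is an RNA-binding protein that associates with the U1 snRNP, the particle that recognises the 5′ end of an intron, and it takes part in the choice of splice sites. Introns are removed from most precursor RNAs and degraded, but some carry smaller genes, among them those of snoRNAs, which guide the modification of ribosomal RNA and are trimmed out of the excised intron. An intron of one gene can also lie across from an exon of a gene on the other strand, so a peak annotated as intronic on one strand can share its position with exon sequence of the other.

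The wholly intronic peaks lay in 140 genes, of which replicate 1 had 37, replicate 2 had 132, and 29 were common to the lists. How many of all genes with a peak were common to the lists was not counted. The 140 genes are 7.31% of the 1914 genes with any peak. Of them, 85 held 1 such peak in the pooled lists, 33 held 2 and 22 held 3 or more. A position called in both lists counts as 2 peaks here, so these are not counts of separate sites. Most peaks were of the shortest length in the lists, 51 nt, which was the case for 40 of 48 peaks in replicate 1 and 184 of 197 in replicate 2. Over all peaks it was 2560 of 2696 in replicate 1 and 7537 of 8108 in replicate 2, so this length is a property of the lists as a whole. Both strands of the genome were used, with 22 plus and 26 minus peaks in replicate 1 and 108 and 89 in replicate 2.

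Tags ran from 19 to 215.5 in replicate 1 with a median of 25.5, and from 20 to 261 in replicate 2 with a median of 26. The median of all peaks was 24 and 26, so the typical wholly intronic peak was about as strong as any other. Strong peaks made up a larger share. In replicate 1, 9 of 48 wholly intronic peaks had at least 50 tags (18.8%, 10.2 to 31.9), against 5.34% of all peaks and 1.34% of sense peaks that held coding sequence and intron. In replicate 2 the count was 28 of 197 (14.2%, 10 to 19.8), against 8.72% of all peaks and 8.3% of the coding and intronic ones. The intervals treat peaks as independent, which neighbouring peaks are not, so they do not serve as a test. The excess of replicate 1 rests on few loci: 4 of the 9 peaks were in Cald1 and 4 at ribosomal RNA loci, which here include all scaffolds. LOC310926 is among the latter only because it lies on a scaffold. Without the ribosomal RNA loci the share was 11.6% there, against 3.48% of all peaks, and 14.5% in replicate 2, against 8.52%. Without Cald1 it was 11.4%, against 5.07%, and 13% in replicate 2, against 8.65%. Without both, 1 of 39 peaks of replicate 1 had at least 50 tags (2.56%, against 3.19% of all peaks), so its larger share was carried by these loci; in replicate 2 it was 25 of 189 (13.2%, against 8.45%). The peaks just outside the rule, sense peaks with an intron share of at least 0.9 and below 1, numbered 67 and 167 and had a median of 23 and 26 tags.

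Few of these peaks lay beside an exonic peak of their gene. This held for 3 of 48 in replicate 1 (6.25%, 2.15 to 16.8) and 18 of 197 in replicate 2 (9.14%, 5.86 to 14), within 1 kb and on the sense strand. The same was true of 26.8% of all sense peaks in replicate 1 and 42.7% in replicate 2, for which the nearest other peak was taken. Wholly intronic peaks hold no exon by the rule, while all other sense peaks do. A peak in a gene without another exon-containing peak counts as not near. The gap is thus set in part by the rule and is not read as a result about these peaks. The share of genes without an exon-containing sense peak was not counted over all genes with a peak. In 91 of the 140 genes, which held 159 of the peaks, no exon-containing sense peak was called in either list. Where one existed in the same list, for 16 and 62 peaks, the median distance to it was 42625 nt in replicate 1 and 3400 nt in replicate 2, and the farthest lay 467500 nt away, in Foxp1, which encodes a forkhead transcription factor.

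Other measures were closer to the lists as a whole. In replicate 1, 29.2% of wholly intronic peaks (18.2 to 43.2) had a neighbour of any kind on the same strand within 1 kb, against 30.9% of all peaks. For replicate 2 it was 33% (26.8 to 39.8), against 43.6%. An opposite-strand peak in the same bin was found for 23 of 48 (47.9%, 34.5 to 61.7) and 124 of 197 (62.9%, 56 to 69.4), against 46.2% and 70.0% of all peaks. Recurrence, an overlap on the same strand with a peak of the other list, was seen for 29 of 48 (60.4%, 46.3 to 73) and 28 of 197 (14.2%, 10 to 19.8), against 61.0% and 20.3%. In replicate 1 all 3 shares were close to those of the list, and in replicate 2 all 3 were lower. Peaks just outside the rule recurred in 68.7% of cases in replicate 1 and 25.1% in replicate 2.

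**Figure D1:**
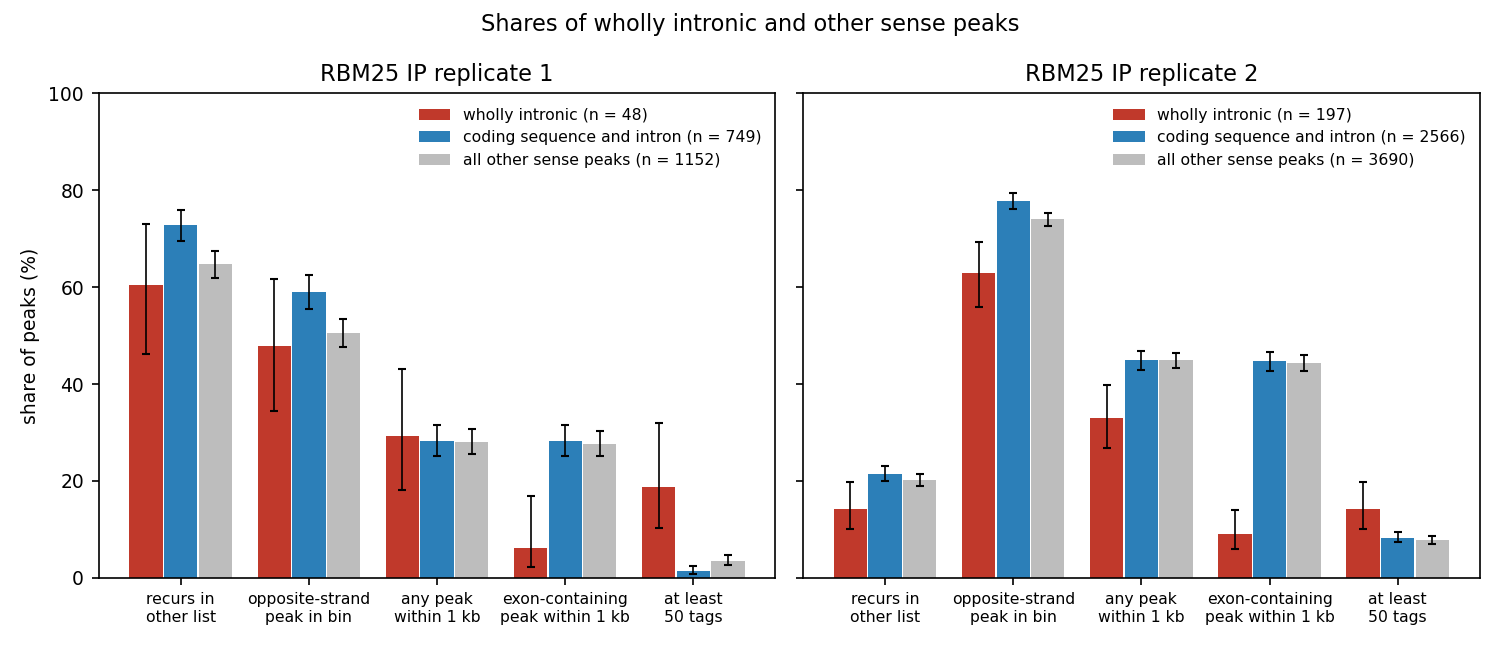
Share of peaks (%) with each of 5 properties in RBM25 IP replicate 1 (left) and replicate 2 (right), for wholly intronic peaks, sense peaks with coding sequence and intron, and all sense peaks that are not wholly intronic, which include the second class. Bars are shares and whiskers 95% Wilson intervals. The wholly intronic bars stand below the others for an exon-containing peak within 1 kb (6.25% and 9.14%) and above them for at least 50 tags (18.8% and 14.2%). By the rule, wholly intronic peaks hold no exon and the other classes do, which in part sets the first of these gaps.

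The wholly intronic peaks were then ordered by what was called in the same bin on the opposite strand of the same list. In replicate 2, an exon-containing peak of another gene lay there for 54 of 197 (27.4%, 21.7 to 34), an antisense peak of the same gene for 55 (27.9%, 22.1 to 34.6), and an antisense peak of a small RNA gene nested in the intron for 11 (5.58%, 3.15 to 9.72). A ribosomal RNA gene peak lay across from 1, another peak from 3, and no peak from 73 (37.1%, 30.6 to 44). In replicate 1 the same classes held 6, 9, 5, 3, 0 and 25 of 48 peaks. The strand from which the RNA of a bin with peaks on both strands came was not tested. The kit was stranded per the labels, and how the authors' peak calling handled strand is not given in the sources used here.

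Tags varied between the classes. Peaks with nothing across from them had a median of 23 tags in both lists. Those across from an antisense peak of their own gene had a median of 65.2 in replicate 1 and 34 in replicate 2 (39 over 5 peaks and 32 over 51 without Cald1), and included the strongest wholly intronic peak of each list. Of the 28 peaks with at least 50 tags in replicate 2, 16 were of this class, 7 lay across from an exon-containing peak of another gene and 4 had nothing across from them. Opposite-strand peaks below 19 tags in replicate 1 or 20 in replicate 2 are not listed, so weak peaks can lack one for that reason alone. Median tags over all peaks of a list without an opposite-strand peak were not taken.

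**Figure D2:**
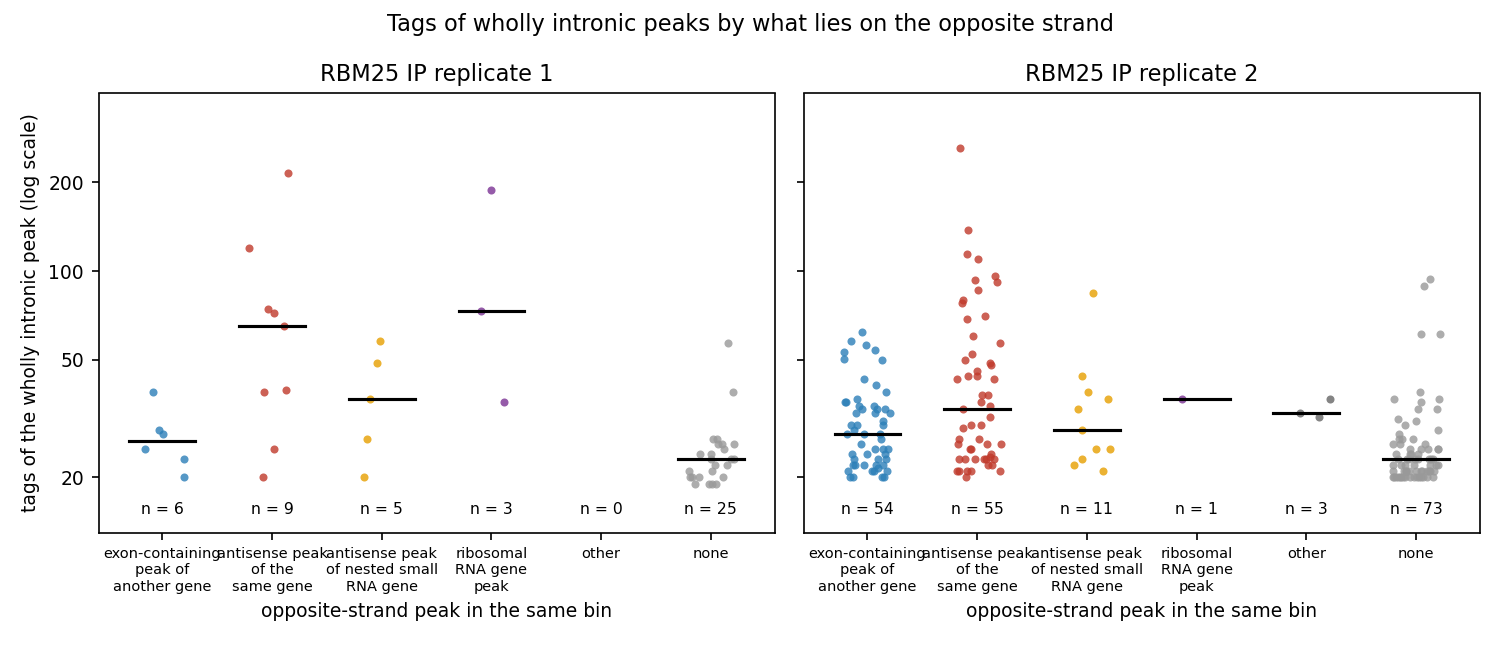
Tags of each wholly intronic peak (log scale) by the opposite-strand peak in the same bin, in replicate 1 (left, 48 peaks) and replicate 2 (right, 197 peaks). Points are peaks, spread sideways for legibility, and lines are medians, which are lowest (23 tags) for peaks with nothing on the opposite strand. Opposite-strand peaks under the lowest tags of a list are not called, so weak peaks can fall in this class for that reason alone.

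Peaks across from exon-containing peaks of another gene came in pairs of genes. Exon-containing peaks can be intronic for most of their length. Plk5, which encodes a polo-like kinase, had 7 wholly intronic peaks in the pooled lists and no exon-containing sense peak. Of the 7, 5 shared their bin with an exon-containing peak of Adamtsl5, a gene on the plus strand for a secreted ADAMTS-like protein. At chromosome 7, 9364250 to 9364300 (mRatBN7.2, minus strand), Plk5 had 39 tags beside 42 for Adamtsl5 in replicate 1, and 54 beside 51 in replicate 2. A peak 1150 nt along had 19 Plk5 tags with nothing opposite in replicate 1, and 22 beside 21 in replicate 2. The other replicate 2 bins with both genes had 28 and 29 tags for Plk5 beside 26 and 23 for Adamtsl5, so in replicate 2 the first bin was the strongest on both strands.

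Ccdc189, which the name table lists as Cfap119, a gene linked to cilia and flagella, had 5 wholly intronic peaks, all in replicate 2. Of these, 3 lay across from exon-containing peaks of Rnf40, which encodes a ubiquitin ligase that acts on histone H2B. They had 21, 35 and 62 tags beside 27, 27 and 55 for Rnf40, whose first peak was mostly intronic, and the strongest was at chromosome 1, 182210600 to 182210650 (minus strand). Tulp2, which encodes a tubby-like protein, held the most wholly intronic peaks of any gene, 9 in the pooled lists, with 20 to 34 tags and no exon-containing sense peak. Exon-containing peaks of Nucb1, the gene of the calcium-binding protein nucleobindin, lay across from 2 of them in replicate 2, with 34 beside 30 tags and 24 beside 23. At 3 Tulp2 positions the peak recurred, with 22 and 34, 20 and 34, and 22 and 22 tags in replicates 1 and 2.

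Genes named only by a LOC identifier made up 32 of the 54 peaks of this class in replicate 2, and 25 of the 54 were in genes that the name table lists as lncRNA. LOC108349051 lay across from Zwint, the gene of a kinetochore protein, at chromosome 20, 15953800 to 15953850 (plus strand), with 28 tags beside 30 in replicate 1 and 50 beside 49 in replicate 2. LOC108350422 lay across from Trim44, a member of the tripartite motif family, at chromosome 3, 88728300 to 88728350 (plus strand), with 29 tags beside 24 and 35 beside 33. LOC120102987 had 5 peaks, of which 3 faced exon-containing peaks of the collagen gene Col16a1 with 36, 25 and 30 tags beside 34, 30 and 23. LOC102550607 had 2 such peaks across from Gpc4, which encodes the cell surface proteoglycan glypican, with 33 and 21.5 tags beside 31 and 21. In all of these bins the 2 strands differed by at most 7 tags.

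Some pairs, chosen after their values were seen, were less even. Phykpl had 58 tags across from an Hnrnpab peak with 24, and Dcaf8 had 56 across from Pea15 with 42. LOC102549865 had 53 tags in replicate 2 across from Atn1 with 83. Over the class in replicate 2, the wholly intronic peak was the higher in 37 bins, the exon-containing one in 12, and they were equal in 5. In replicate 1 the exon-containing peak was the higher in 5 of 6.

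Peaks across from an antisense peak of their own gene included those with the most tags. Cald1 encodes caldesmon, which binds actin and tropomyosin. Its wholly intronic peaks formed the longest run in replicate 1, 4 peaks over 701 nt at chromosome 4, 63296800 to 63297500 (plus strand), with 74.5, 72.3, 120 and 65.2 tags. Replicate 2 had 3 peaks over 651 nt there, with 60.5, 70.3 and 93.2 tags, and a further peak of 30 tags that started 1750 nt before the run. The antisense peaks over the run had 51, 114.8 and 66.7 tags in replicate 1 and 89.6 and 51.5 in replicate 2. Every Cald1 peak lay at least 116150 nt from the nearest exon-containing sense peak of the gene in its list, and all but the 30-tag one recurred.

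Rbms3, which encodes an RNA-binding protein, showed the same layout at lower tags. At chromosome 8, 116877200 to 116877250 (minus strand), it had 39 tags beside 20 antisense in replicate 1, and 46 beside 34 in replicate 2. The neighbouring peak, 116877350 to 116877450, had 39.5 and 29.5 tags, with 32 on the antisense strand in both lists. Rbms3 had no exon-containing sense peak in either list.

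The 5 strongest wholly intronic peaks of replicate 2 did not recur in replicate 1. Fmn1, the gene of the actin-nucleating protein formin, had 261 tags at chromosome 3, 100414200 to 100414250 (plus strand), and 226 antisense. A second Fmn1 peak, 100356500 to 100356600, had 110 tags and 211 antisense, and one between them had 23 tags and nothing across from it. Foxo1, which encodes a forkhead transcription factor downstream of insulin signalling, had 3 peaks within 18600 nt on chromosome 2 with 80, 114 and 138 tags, beside 60, 79 and 132 antisense. Dym, the gene of the Golgi-associated protein dymeclin, had 96 tags at chromosome 18, 68827550 to 68827600 (plus strand), and 137 antisense. Replicate 1, whose lowest peak had 19 tags, had no wholly intronic peak in any of these 3 genes. It did have an antisense peak of 19 tags in the bin of the strongest Fmn1 peak.

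Lpin1, which encodes a phosphatidate phosphatase, had 4 wholly intronic peaks in replicate 2, with 49, 38, 92 and 94 tags in order along chromosome 6. The first 3 faced antisense peaks of 54, 33 and 154 tags, and the peak of 94 tags faced none. Nbas, whose product takes part in transport from the Golgi to the endoplasmic reticulum, had 4 with 20, 44, 36 and 57 tags, the last 3 facing 37, 32 and 41. Unlike Lpin1 and Foxo1, Nbas also had 12 exon-containing sense peaks in replicate 2, and the nearest of them lay 6900, 2000, 76600 and 108500 nt from its 4 wholly intronic peaks. None of the Lpin1 or Nbas peaks recurred.

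Among all 28 peaks with at least 50 tags in replicate 2, 7 recurred (25%, 12.7 to 43.4), against 30.1% of all peaks that strong. In replicate 1, 4 of 9 recurred (44.4%, 18.9 to 73.3), against 45.8%. The 4 were the Cald1 run, and the other 5 lay in LOC310926, LOC108352829 and LOC120093208. Of the 22 genes behind the 28 peaks of replicate 2, 10 had a peak of some kind in replicate 1. The rest had none, among them Foxo1. The same count over all genes of replicate 2 was not made. Of all peaks of replicate 2, 20.3% recurred, so absence from replicate 1 was common.

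**Figure D3:**
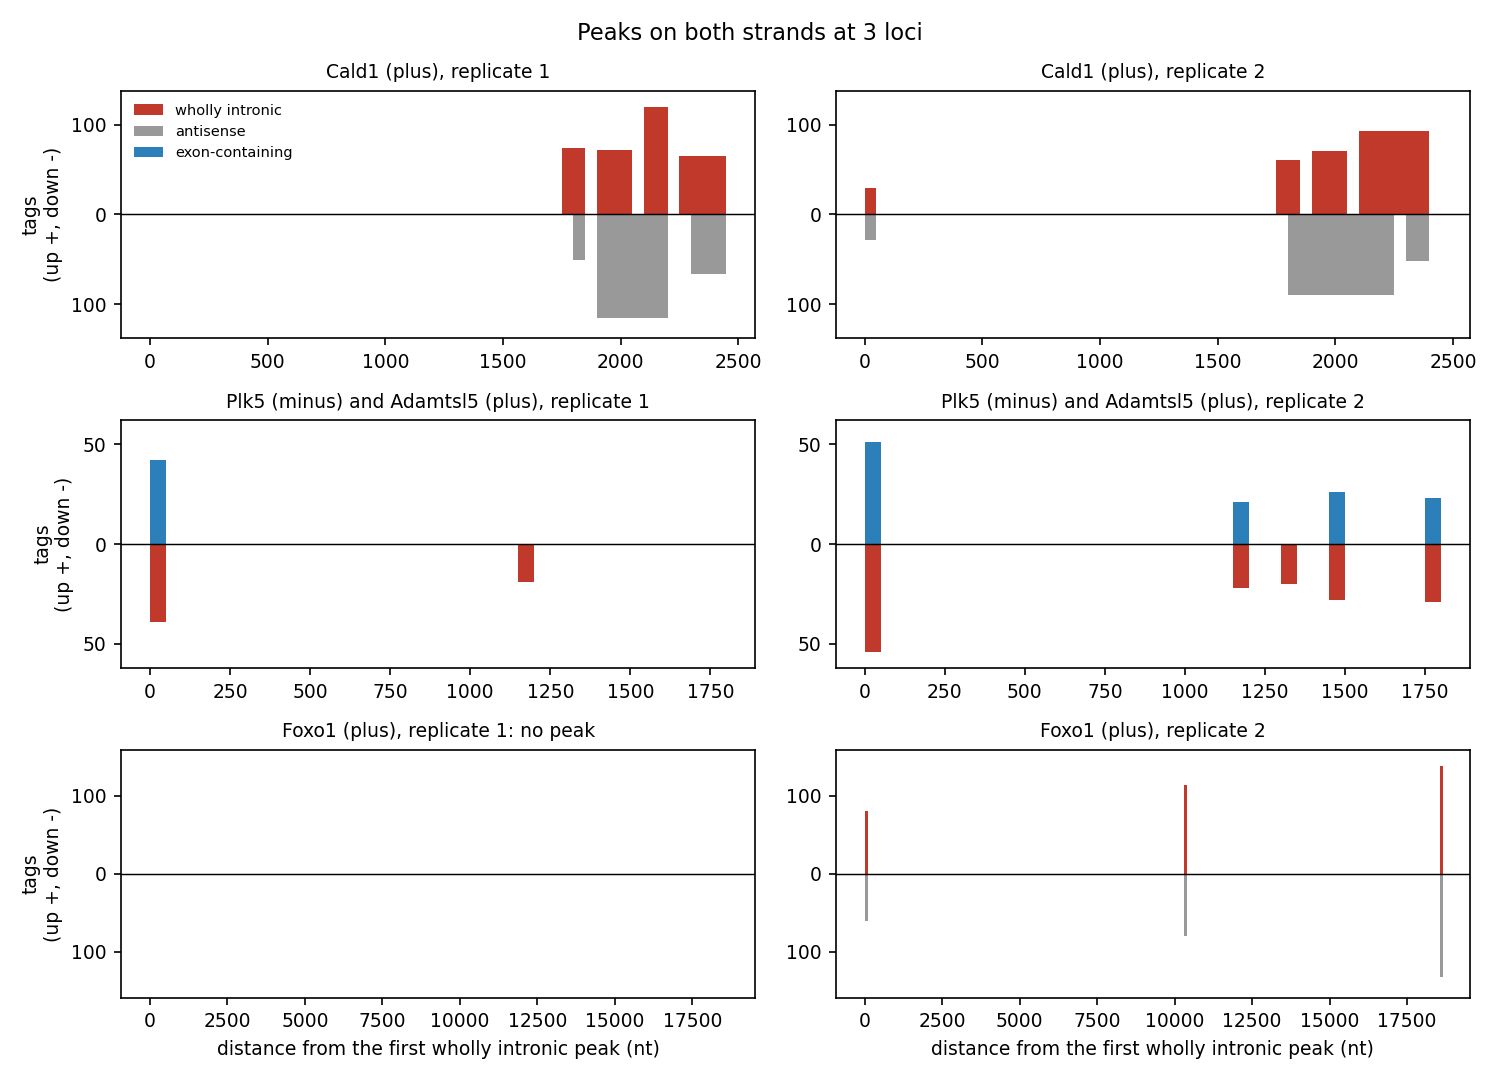
Peaks on the plus strand (up) and minus strand (down) at Cald1, Plk5 with Adamtsl5, and Foxo1 in replicates 1 and 2, as tags against distance in nt from the first wholly intronic peak; bar width is peak length, widened at Foxo1 to be visible. Wholly intronic peaks of Cald1 and Foxo1 face antisense peaks of the same gene, and Foxo1 has no peak in replicate 1. Of the 7 Plk5 peaks of both lists, 5 face exon-containing peaks of Adamtsl5 and the rest face none.

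A further group faced peaks that the authors annotated as antisense to a small RNA gene inside the intron, which places the small RNA gene on the strand of the wholly intronic peak. All 11 such genes in replicate 2 and 4 of the 5 in replicate 1 were snoRNA genes, and the other was an snRNA gene inside LOC120093208, with 58 tags beside 46. Rpl13a, the gene of a ribosomal protein, held Snord33 at chromosome 1, 95610700 to 95610750 (minus strand), with 27 tags beside 26 in replicate 1 and 37 beside 36 in replicate 2. Ipo7, which encodes an importin, held Snora23 at chromosome 1, 164091000 to 164091050 (plus strand), with 49 tags beside 25 and 44 beside 27. Gas5, a noncoding snoRNA host gene, had 23 tags beside 23 in replicate 2.

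Other snoRNA hosts, named after their values were seen, included 4 genes of the translation machinery. Hspa8, a chaperone gene, had 20 tags beside 20 in replicate 1 and 39 beside 39 in replicate 2. Rps3 with Snord15b had 37 beside 35 in replicate 1. In replicate 2, Eif4a1 with Snord10 had 25 beside 25, Eif4a2 had 29 beside 29, Rpl6 had 21 beside 21 and Cct6a, a chaperonin gene, had 22 beside 23. Tex14 stood apart with 84 beside 93. The strands were equal in 7 of 11 bins of this class in replicate 2 and in 1 of 5 in replicate 1. Among bins with a single-bin peak on each strand, equal tags were found for 14.5% of 110 wholly intronic peaks and 11% of 2441 other sense peaks in replicate 2. In replicate 1 it was 7.14% of 14 and 10.2% of 537. The authors' lists assigned 19 peaks to snoRNA or snRNA genes in replicate 2, of which 17 were antisense and 11 faced a wholly intronic peak. In replicate 1 the numbers were 12, 8 and 5. How the authors placed reads that match several copies of a snoRNA family is not given, so the position of single copies is uncertain.

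**Figure D4:**
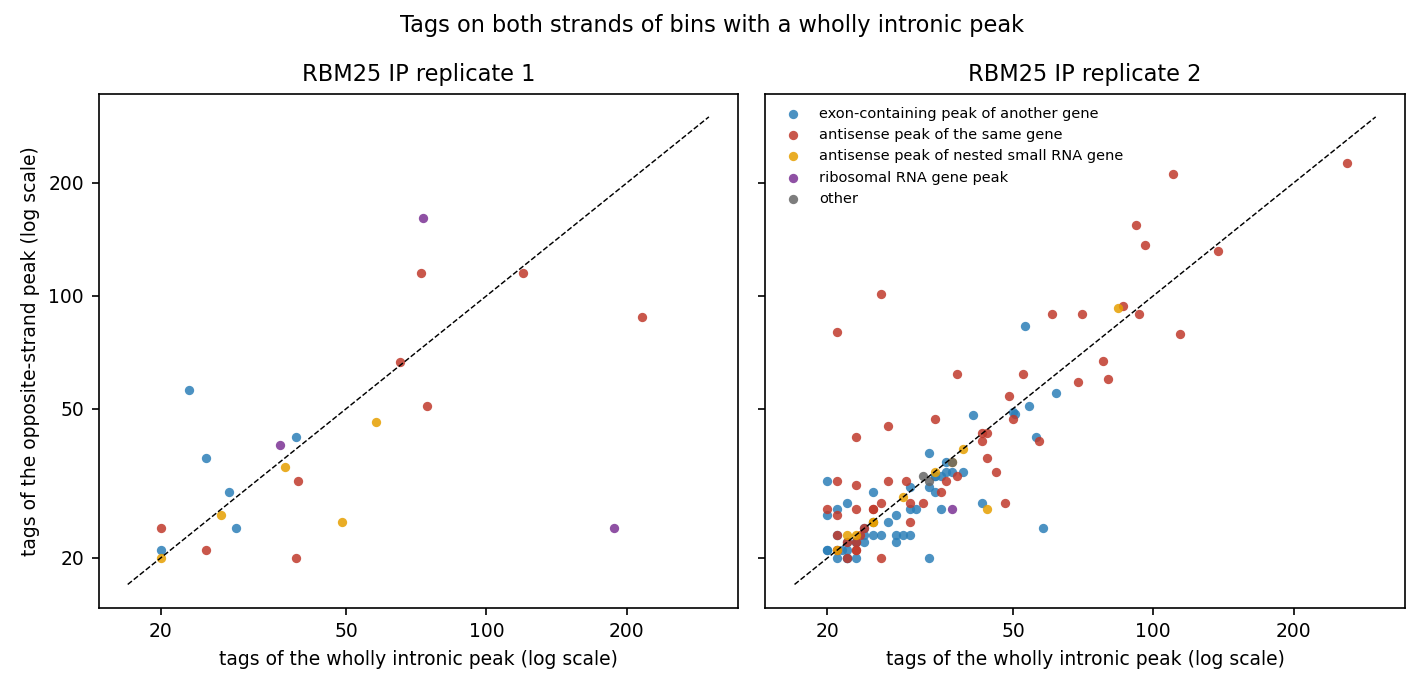
Tags of the opposite-strand peak against tags of the wholly intronic peak in the same bin (both log scales) in replicate 1 (left, 23 bins) and replicate 2 (right, 124 bins), coloured by the class of the opposite-strand peak. The dashed line marks equal tags; the points of replicate 2 cluster around it, and the points with the most tags are antisense peaks of the same gene, such as Fmn1 at 261 and 226.

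Ribosomal RNA loci, taken to include all scaffolds, held 9 wholly intronic peaks, and none recurred. LOC310926 did not match the name table, faced antisense peaks of its own gene and is counted here by its scaffold alone. It had 215.5 tags in replicate 1, the most of any wholly intronic peak there, and 32, 26 and 27 in replicate 2 at other bins of the same scaffold. LOC108352829, listed as Rn45sl2 in the name table, had 57, 73 and 188 tags in replicate 1 and 37 in replicate 2. Ribosomal RNA genes exist in near-identical copies, so the copy is uncertain. The remaining peak, in LOC108351097, had 36 tags in replicate 1.

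The 25 and 73 peaks with nothing called on the opposite strand were weak for the most part, and a partner under the lowest tags of the list would not be called. Within 1 kb on that strand, an exon-containing peak of another gene was called in either list for 11 of 25 and 14 of 73. The 11 include the LOC108352829 peak of 57 tags, whose neighbour was a ribosomal RNA gene. The same share over all peaks without an opposite-strand peak was not taken, so these counts are not read as a trait of this class. The strongest peaks of the class in replicate 2 were the Lpin1 peak of 94 tags and, chosen after their values were seen, Lcmt1 with 89 and Fryl and LOC120102202 with 61 each. Recurrence in this class was 15 of 25 in replicate 1 and 8 of 73 in replicate 2, beside 5 of 6 and 10 of 54 for peaks facing an exon-containing peak of another gene and 6 of 9 and 7 of 55 for peaks facing their own antisense.

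Runs of wholly intronic peaks within 1 kb of each other on the same strand were short. There were 5 runs with 13 peaks in replicate 1 (27.1%, 16.6 to 41) and 21 runs with 50 peaks in replicate 2 (25.4%, 19.8 to 31.9), and no run exceeded 4 peaks. The Cald1 run was one of these. Plk5 had the other run of 4, over 651 nt in replicate 2, with 20 to 29 tags. Runs of 3 in replicate 2 included LOC310926 over 1501 nt, LOC102550607 over 851 nt and LOC120102987 over 701 nt. Of sense peaks with coding sequence and intron, 25.1% in replicate 1 and 37.4% in replicate 2 were in a run of their own class. Over all peaks it was 30.9% and 43.6%. These classes are larger and so offer more neighbours, and the shares are not read as a result about wholly intronic peaks.

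The peaks that recurred, 29 in replicate 1 and 28 in replicate 2, formed 29 pairs in 22 genes. The Cald1 peak of 93.2 tags in replicate 2 overlapped those of 120 and 65.2 tags in replicate 1, so it enters 2 pairs and the values below. The same start and end were called for 26 of the pairs. Each partner in the other list was wholly intronic too, which a shared position largely fixes and which is not read as a result. Tags were higher in replicate 2 in 20 pairs, equal in 4 and higher in replicate 1 in 5, with a median ratio of replicate 2 to replicate 1 of 1.18. Without a known depth this ratio is a description of the lists. Spearman's rho of the tags was 0.69 over the 29 pairs and 0.53 over the 25 without Cald1. Pairs of 1 gene share a locus, so no p is given. The 10 best-ranked pairs were 4 of Cald1 and 1 each of Plk5, Ipo7, Rbms3, LOC108349051, LOC108350422 and Rpl13a. Zfpm2, a cofactor gene of GATA factors chosen after its values were seen, had the most uneven pair, with 21 tags in replicate 1 and 69 in replicate 2.

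**Figure D5:**
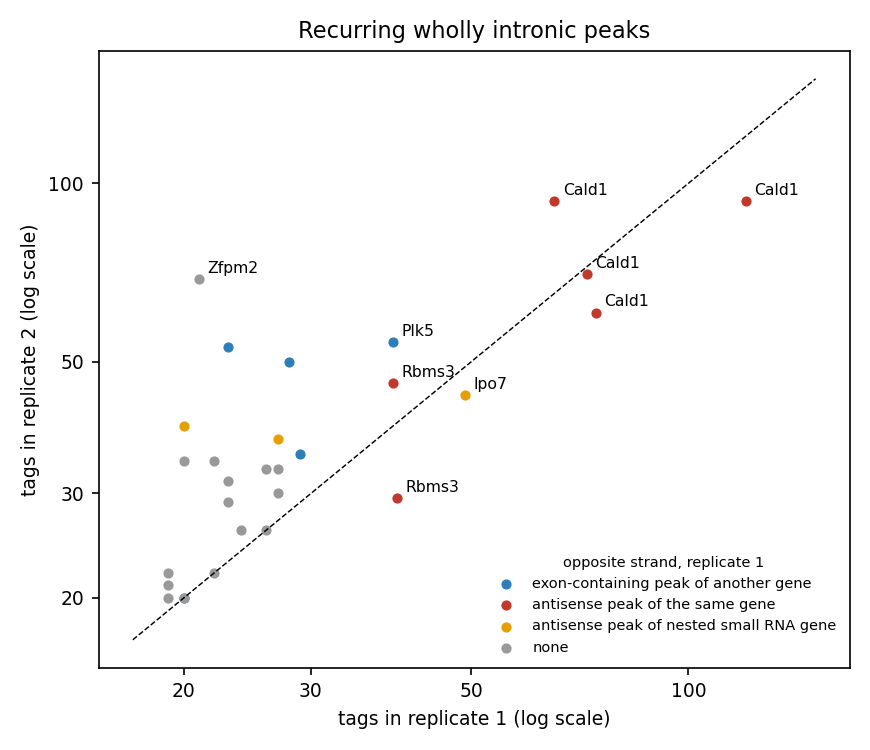
Tags in replicate 2 against tags in replicate 1 (log scales) for the 29 pairs of wholly intronic peaks that overlap on the same strand in both lists, coloured by the opposite-strand peak in replicate 1; the dashed line marks equal tags. Of the 29 points, 20 lie above the line, and the Cald1 points, 4 in number, lie farthest right. Of these 4, 2 share the same replicate 2 peak, of 93.2 tags.

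Genes listed as lncRNA were more common among the genes with wholly intronic peaks than among all genes with a peak. In the name table, 29 of the 140 were lncRNA genes (20.7%), against 45 of all 1914 genes (2.35%), and 97 were protein-coding (69.3%), against 93.9%. A further 12 did not match the table. Of 67 splicing factor genes, 50 had a peak of some kind and 0 had a wholly intronic one. With 7.31% of all genes as the background, 5 of 26 cytoskeletal and muscle genes with a peak had one (19.2%), as did 3 of 23 signalling and transcription factor genes, 2 of 23 extracellular matrix genes and 0 of 8 immune and inflammatory genes. Among long genes with long introns it was 1 of 6, Dym. Of 12 listed long noncoding RNAs, 2 had a peak of some kind and 1, Gas5, had a wholly intronic one.

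The cytoskeletal and muscle genes were Cald1, Tpm1, Actn1, Flna and Myh9. Apart from Cald1 their peaks were close to the lowest tags in the lists. Tpm1, a tropomyosin gene, had 21 tags in replicate 1 and 24 in replicate 2 at different positions. Actn1, the gene of an actin-crosslinking actinin, had 23 tags in replicate 2 and 21 antisense, and Flna, the filamin gene, had 21 and 20. Myh9, a nonmuscle myosin gene chosen after its values were seen, had 20 in replicate 1. The other lists were led by Foxo1, by Runx1 with 27 tags and 45 antisense, and by the collagen gene Col1a1 with 44 tags and 43 antisense, all in replicate 2. Foxp1 had peaks of 19 and 25 tags in the first list and 22 and 21 in the second, and 1 of its positions recurred. Fn1, the fibronectin gene, had 20 tags in replicate 2.

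As a check of the cell type, 3 of 10 muscle markers (Tnnt2, Tnnc1 and Cdh15) and 4 of 6 fibroblast or mesenchymal markers had a peak. None of 4 macrophage, 4 endothelial and 4 cardiomyocyte markers had one. A peak list does not measure expression, so this does not settle the identity of the cells. The wholly intronic peaks in muscle markers had 37 tags in Tnnc1, a troponin gene, and 20 in Cdh15, a cadherin gene, both in replicate 2 and neither recurring.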

How the data were processed

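Peak lists of 2 RBM25 IP samples were used; 2 input samples were not analysed here. The submitters' processing notes name HISAT2 and the rat build mRatBN7.2. How peaks were called and filtered, and whether inputs entered, is not given in the sources used here. Per the file headers, the authors deposited for each peak a position, strand, length, tags, p-value, gene and annotation classes. The tags are a signal that the authors did not scale for depth, so far as the values show: they are whole in 51-nt peaks and means over 50-nt bins in longer ones. The authors' deposited p-value was used only to keep the part of a list at or below its median p-value.

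From these lists, wholly intronic peaks, opposite-strand peaks in the same bin, runs and recurrence (any overlap on the same strand) were counted. Ribosomal RNA loci took in all scaffolds and 50 kb around any peak assigned to a ribosomal RNA gene. The counting was tested on simulated data. Gene types came from a RefSeq name table (assembly GRCr8, names alone): 1829 of 1914 names matched by symbol, 31 by gene number, 19 by synonym and 35 not at all. The 7 gene lists hold 257 entries. Sequences, motifs and distances to exon ends were planned and not analysed here.

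The peaks, lists and named genes were chosen with earlier results of these data known. Named genes are the 10 with most wholly intronic peaks, the 10 recurring peaks of best mean rank, the 5 peaks with most tags per list, the genes of the 5 longest runs and up to 4 per gene list. In the ranking of genes, identifiers without a symbol were passed over. One result is not reported here. The classes by opposite strand, and other genes named, were chosen after the values were seen. Software was pandas 2.3.3 with numpy 2.4.6 under Python 3.11.15, scipy 1.17.1, and matplotlib 3.10.9 for plots.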

Additional observations from a re-analysis of the deposited data

How the results depend on the processing

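Of 104 alternative values, 79 stayed within the interval of the value reported, or within 1.5 times a count, and 25 moved; no result carried a test. With intron as the class covering most of a peak, the share of peaks was 14.3% in replicate 1 and 14.9% in replicate 2, over 829 genes. Peaks chosen that way can hold exon sequence: in replicate 2 recurrence was 20.8% and an opposite-strand peak was found for 75.4%, runs held 14.3% and 19.8%, and an exon-containing peak lay within 1 kb for 24.7% and 39%. Keeping peaks at or below the median p-value of their list, 79 genes were left, median tags were 36.5 and 36, runs held 14.9% in replicate 2, and 0% in replicate 1 had an exon-containing peak within 1 kb. Counting only opposite-strand peaks of the same gene gave 18.8% and 27.9%. Within 5 kb, runs held 38.1% and exon-containing peaks were found for 18.3%, both in replicate 2. Among alternatives chosen after seeing the data, peaks of at least 50 tags recurred in 44.4% and 25%, and opposite-strand peaks of either list were found for 64.6% in replicate 1. Of replicate 1 peaks 1 bin long, 10% had at least 50 tags, which leaves out the Cald1 run and the LOC310926 peak; without Cald1 and the ribosomal RNA loci it was 2.56%. Leaving out each replicate gave 37 to 132 genes and 48 to 197 peaks, so replicate 2 supplies most of both. No paired analysis was possible because no result came from a test. Depth is unknown, replicate 1 holds only 48 of these peaks, and absence from a list can mean a level under its lowest tags, 19 or 20.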
